A study of Homo sapiens with 9 samples.

Results

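Gluconeogenesis, the synthesis of glucose from lactate, amino acids and glycerol, runs most of glycolysis in reverse and bypasses its irreversible steps through 4 reactions of its own. Pyruvate carboxylase (PC) makes oxaloacetate from pyruvate in mitochondria, a phosphoenolpyruvate carboxykinase (PCK1 in the cytosol, PCK2 in mitochondria) converts oxaloacetate to phosphoenolpyruvate, fructose-1,6-bisphosphatase (FBP1) removes a phosphate from fructose 1,6-bisphosphate, and glucose-6-phosphatase (G6PC) releases free glucose. Liver and the proximal tubule of the kidney run the whole route, and its loss is a known feature of clear cell renal cell carcinoma (ccRCC). The 5 enzymes were picked by gene name, at a time when earlier results of these data were known, and were 5 of the 38021 genes in the table.

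RNA-seq counts were available for 786-O cells, a line established from a human ccRCC that lacks functional VHL and therefore accumulates HIF2α. Cells carried a control hairpin (shControl), a hairpin against ARNT (shARNT), the usual partner of HIF2α, or a hairpin against BMAL1 (shBMAL1), a circadian transcription factor related to ARNT, with 3 libraries in each group. All groups share the VHL-deficient background, lentiviral delivery and puromycin selection, and each knockdown is a single group, so an effect of the hairpin and an effect of its target cannot be told apart. The question was which transcripts depend on ARNT, on BMAL1 or on both. The labels call the 3 libraries of a group biological replicates without naming separate cultures, so the p-values measure the spread between these libraries. In bulk RNA, fewer expressing cells and less RNA per cell cannot be told apart.

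Libraries held 33793045 to 35444735 reads assigned to genes. ARNT fell from 2352 ± 184 to 1225 ± 23.2 normalised counts in shARNT, and BMAL1, listed as ARNTL, fell from 761 ± 32.0 to 326 ± 29.2 in shBMAL1 (mean ± SD, n = 3, DESeq2 adjusted p = 8.83e-35 and 2.51e-25). Of 8 markers of renal carcinoma lines, 8 were detected, among them PAX8 at 6884 to 10477 counts. Of these 8 markers, 3 were lower and 2 higher in shARNT, beside 19.0% and 16.5% of all genes tested. In shBMAL1, 3 markers were lower and 3 higher, beside 19.4% and 17.4% of all genes tested. The largest changes were in CA9, a HIF target, which was lower in shARNT (log2 fold change −2.85, DESeq2 adjusted p = 6.94e-19) and higher in shBMAL1 (1.05, adjusted p = 2.15e-08), and in the cadherin CDH6, higher in both (1.01, adjusted p = 5.68e-78, and 1.72, adjusted p = 7.88e-170). PAX8 was lower in shBMAL1 (−0.49, adjusted p = 1.71e-11), as was the keratin KRT18 (−0.40, adjusted p = 8.54e-06). EPAS1, which encodes HIF2α, was lower in shARNT (−0.23, adjusted p = 0.000563), and the keratin KRT8 was higher in shARNT (0.31, adjusted p = 7.63e-10). Among markers of other cell types, CD3E and CDH5 had 0 reads, and the markers other than CD68 and COL1A1 summed to 2.01 to 10.9 counts per library, while CD68 stood at 5325 to 7882 counts and was lower in shBMAL1 (−0.31, adjusted p = 0.00152). COL1A1 was called lower in shARNT (−0.41, adjusted p = 0.0993), close to the threshold of 0.1. The 13 protein-coding mitochondrial genes took 4.94 to 6.54% of reads in shControl against 6.97 to 8.13% in shARNT and 7.93 to 8.60% in shBMAL1. The part of these differences in the results below was not tested.

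Only PCK2 and PC were expressed at levels that could be tested. PCK1 and G6PC had 0 reads in every library. At 95% confidence this puts their level at no more than about 3 reads per library, or 0.0846 to 0.0888 RPM (reads scaled to library size). FBP1 had 0 reads in the 3 shControl libraries, 1, 0 and 0 reads in shARNT and 0, 1 and 3 reads in shBMAL1, a total of 5 reads in 9 libraries, so no fold change is given. A long non-coding RNA on the opposite strand of FBP1, PCAT7, was listed at 16.0 to 40.2 normalised counts. The cytosolic carboxykinase and both phosphatases that complete the route to glucose were therefore not detectable, or barely so, in control cells and in either knockdown, and a further fall of these genes could not have been seen at this depth.

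The related genes that could stand in for the silent phosphatases gave a mixed picture. G6PC2, the islet form of glucose-6-phosphatase, had 0 reads in all libraries, and FBP2, the muscle fructose bisphosphatase, had 0 reads in 7 of 9 libraries and at most 2.98 normalised counts. G6PC3, the widely expressed form, reached 5022, 4658 and 4820 counts in shControl against 4253, 4162 and 4018 in shARNT and 5537, 5374 and 4852 in shBMAL1. All 3 shARNT libraries lay below all others (log2 fold change −0.22, DESeq2 adjusted p = 0.000569), whereas shBMAL1 overlapped shControl (0.12, adjusted p = 0.213, and 0.17 with adjusted p = 0.0579 without shBMAL1 replicate 3). SLC37A4, which carries glucose 6-phosphate into the endoplasmic reticulum for this reaction, had a mean of 2837 ± 178 counts in shControl against 2572 ± 158 in shARNT and 3906 ± 510 in shBMAL1 (n = 3). It rose in shBMAL1 (0.46, adjusted p = 5.37e-06). In shARNT it was 0.14 lower on the log2 scale with adjusted p = 0.122, and passed with edgeR (adjusted p = 0.0869), with TMM size factors (0.0912) or without shControl replicate 3 (0.0423).

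PCK2 was the member with the largest change. Its gene lies on GRCh37 chromosome 14 from 24563262 to 24579807 on the plus strand, and NRL on the minus strand, which overlaps it, was at 4.96 to 16.1 counts. Normalised counts were 5138, 5345 and 5316 in shControl, 2177, 2235 and 2467 in shARNT, and 3965, 4291 and 4239 in shBMAL1. The groups did not overlap, and every shBMAL1 library lay between the shControl and the shARNT libraries. In shARNT, PCK2 was 56.4% lower (log2 fold change −1.20, SE 0.06, 95% interval −1.32 to −1.08, DESeq2 adjusted p = 1.39e-81). In shBMAL1 it was 21.0% lower (−0.34, SE 0.06, adjusted p = 1.58e-06). Both comparisons use the same shControl libraries. Set directly against each other, shBMAL1 held more PCK2 than shARNT (0.86, SE 0.07, adjusted p = 4.01e-29).

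PC lies on GRCh37 chromosome 11 from 66615888 to 66725857 on the minus strand. LRFN4, a plus-strand gene that overlaps it, had 0 to 3.98 counts. PC counts were 1781, 1889 and 1984 in shControl, 1556, 1562 and 1473 in shARNT, and 2074, 1809 and 2191 in shBMAL1. The shARNT libraries were lower than all others, while the shControl and shBMAL1 libraries overlapped. PC was 18.6% lower in shARNT (log2 fold change −0.30, SE 0.07, DESeq2 adjusted p = 0.000196). In shBMAL1 no difference was called (0.10, SE 0.09, 95% interval −0.07 to 0.27, adjusted p = 0.429), and the direct comparison placed shBMAL1 above shARNT (0.40, SE 0.09, adjusted p = 2.86e-05).

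Thus 2 of the 5 enzymes could be tested in each comparison. Both fell in shARNT, where 35.4% of 15164 genes tested were called at an adjusted p under 0.1, 19.0% lower and 16.5% higher. In shBMAL1, 1 of 2 fell, against 36.8% of 19036 genes called, 19.4% lower and 17.4% higher. Both were higher in shBMAL1 than in shARNT, a comparison in which 35.3% of 18181 genes were called, 18.0% lower and 17.3% higher. With 2 genes tested, these counts do not set the enzymes apart from other genes as a group.

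**Figure D1:**
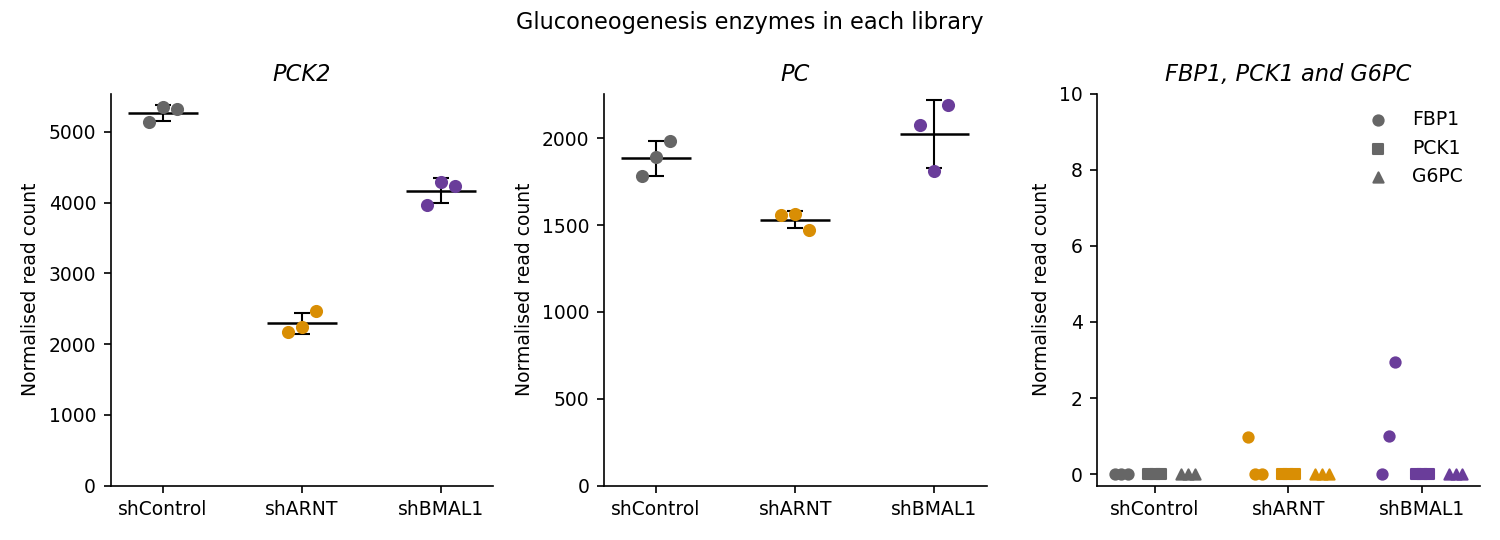
Normalised counts of the 5 gluconeogenic enzymes in each library of shControl, shARNT and shBMAL1, each point a library and each horizontal bar the mean of 3. PCK2 separates into 3 levels (means 5266, 2293 and 4165), PC is lowest in shARNT (1885, 1530 and 2025), and FBP1, PCK1 and G6PC sit at or next to 0.

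Per length, PCK2 was the more abundant of the detected enzymes. It stood at 68.9 ± 0.70 RPKM (reads per kilobase of transcript, scaled to the reads of the library) in shControl, 30.5 ± 2.01 in shARNT and 55.8 ± 3.18 in shBMAL1 (mean ± SD, n = 3), which placed it at the 93.8, 85.8 and 92.3 percentile of detected genes. PC stood at 12.5 ± 0.582, 10.3 ± 0.349 and 13.7 ± 1.35 RPKM, at the 70.2, 66.8 and 72.9 percentile. The mitochondrial carboxykinase therefore exceeded PC in all groups, and the gap was narrowest in shARNT.

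HIF dimers and BMAL1 dimers recognise short DNA elements, so the promoters of the enzymes were searched for the letters of these elements. RefSeq promoter windows (GRCh38.p14, from 250 bases before to 50 bases after a transcription start) were found for 4 of the 5 enzymes, 6 windows in all, 3 of them for PC. Searched on both strands were ACGTG and GCGTG, the cores of the hypoxia response element, CACGTG, the E-box bound by BMAL1, which contains ACGTG, TGACGTCA, the cyclic AMP response element, and TTNCATCA, a core of the amino acid response element bound by ATF4. The matches are shown with the letters found in capitals and 9 bases on each side, 5′ to 3′ on the strand of the gene.
PC, 184 bases before the start, chr11:66958554-66958576, minus strand: gcggggctgACGTGgggcgccaa
PC, 163 bases before the start, chr11:66958533-66958555, minus strand: aaggcttaaACGTGacggacagg
G6PC, 88 bases before the start, chr17:42900702-42900724, plus strand: tttagacaaACGTGgtttttgag
G6PC, 137 bases before the start, chr17:42900653-42900678, plus strand: tgaacatgtTTGCATCAacctactgg
FBP1, 173 bases before the start, chr9:94639678-94639700, minus strand: cggcagggcGCGTGggggcgggg

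Both PC matches fell in 1 of its 3 windows. The PCK2 window held none of the 5 sets of letters, which says only that they are absent from these 300 bases. Of 35116 promoter windows, 21.4% held ACGTG, 36.5% GCGTG, 7.26% CACGTG, 1.85% TGACGTCA and 3.62% TTNCATCA. A match is a description of the sequence and not a measured binding site.

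Most of the amino acid response genes tested were, like PCK2, lower in shARNT. PCK2 is a known target of ATF4, the transcription factor that is translated when amino acids run short or the endoplasmic reticulum is stressed, and that raises genes of amino acid synthesis and uptake. Of 15 such genes, 14 could be tested, 12 were lower in shARNT and 0 higher, beside 19.0% of all genes tested called lower and 16.5% higher, with a median log2 fold change of −0.58 against 0.0028 over all genes tested. In shBMAL1, 7 of 14 were lower and 0 higher, beside 19.4% and 17.4% of all genes, with a median of −0.21 against 0.015. Against shARNT, 12 of 14 were higher in shBMAL1 and 0 lower, beside 17.3% and 18.0% of all genes, with a median of 0.35 against 0.0094. PHGDH, the first enzyme of serine synthesis, was the untested member, with at most 1.95 counts in any library.

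The largest falls in shARNT were in ASNS and CHAC1. ASNS, which makes asparagine, had 6363, 7425 and 6410 counts in shControl against 2694, 2953 and 3307 in shARNT, and 4925, 6393 and 6614 in shBMAL1. It fell in shARNT (log2 fold change −1.17, DESeq2 adjusted p = 2.49e-49) without overlap. In shBMAL1 the libraries overlapped shControl (−0.17, adjusted p = 0.185). With each library left out in turn, this value ranged from −0.25 (adjusted p = 0.0529, without shBMAL1 replicate 3) to −0.05, with adjusted p up to 0.672. CHAC1, a glutathione-degrading enzyme, showed the same order, with 478 ± 62.3 counts in shControl against 230 ± 11.8 in shARNT and 426 ± 37.3 in shBMAL1 (−1.05, adjusted p = 1.83e-13, and −0.17, adjusted p = 0.358). For both genes shBMAL1 was above shARNT (1.00, adjusted p = 1.36e-20, and 0.89, adjusted p = 1.02e-09).

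TRIB3, a pseudokinase that feeds back on ATF4, and the amino acid transporter SLC7A5 had the largest falls in shBMAL1 (log2 fold change −0.56, DESeq2 adjusted p = 3.27e-14, and −0.44, adjusted p = 1.22e-06). They fell further in shARNT (−1.02, adjusted p = 2.32e-72, and −0.77, adjusted p = 3.39e-39), and the direct comparison called both differences (0.46, adjusted p = 1.55e-08, and 0.33, adjusted p = 0.000203). The ATF4 transcript itself was lower in shARNT (−0.41, adjusted p = 2.4e-12) and in shBMAL1 (−0.30, adjusted p = 6.14e-07), with no call between the knockdowns (0.11, adjusted p = 0.212). ATF4 is regulated largely at translation, which these counts do not measure.

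**Figure D2:**
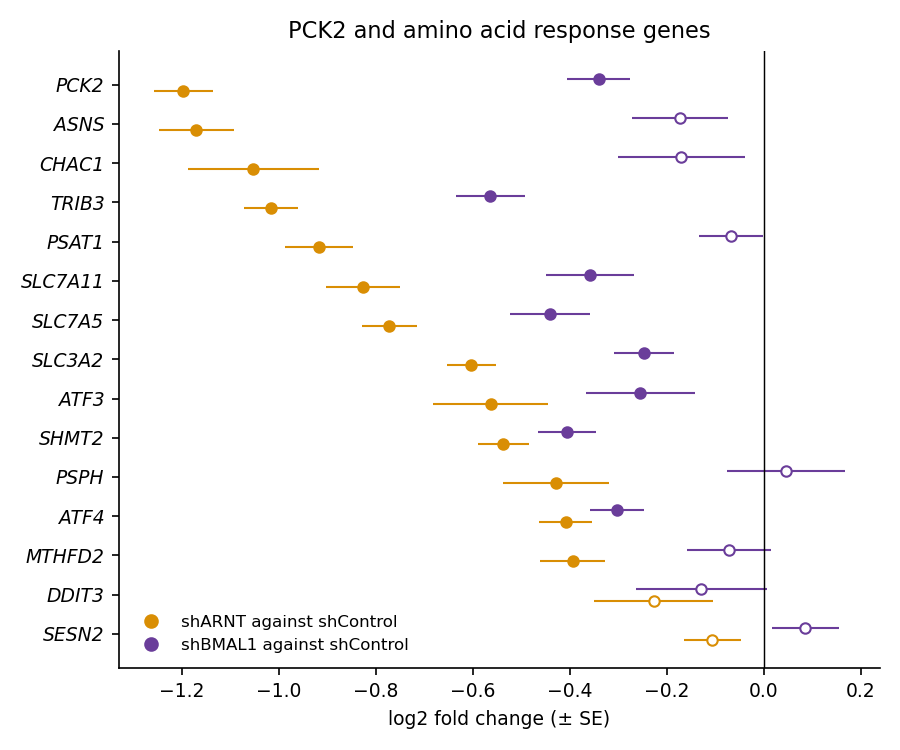
Log2 fold changes with standard errors of PCK2 and the tested amino acid response genes in shARNT and shBMAL1 against the same 3 shControl libraries, filled points being called at an adjusted p under 0.1 and open points not. In shARNT all points lie below 0, with PCK2 (−1.20) and ASNS (−1.17) at the far end, and most shBMAL1 points lie nearer to 0.

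Across the 9 libraries, the genes most like PCK2 were chosen by Pearson correlation of log2(normalised count + 1) among 12935 genes. They were FAM206A (r = 0.994), SH2D3A (r = 0.993) and CTH (r = 0.988), and those most like PC were DBNL (r = 0.973), TRPT1 (r = 0.969) and IGSF3 (r = 0.962). The points share 3 groups, so these values mainly describe the order of the group levels. CTH is the cystathionine gamma-lyase of cysteine synthesis. Since these genes were picked for their likeness over the same libraries, no test of their changes is given.

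The partner genes moved in both directions. Their list holds shuttles, carriers and dehydrogenases that feed gluconeogenesis, and also G6PC2, G6PC3, FBP2 and SLC37A4, described above, and the glucose transporter SLC2A2. G6PC3 is thus counted among the genes lower in shARNT, SLC37A4 among those higher in shBMAL1 and SLC2A2 among those higher in both. Of 22 partner genes, 19 could be tested in shARNT, with 3 lower and 6 higher and a median log2 fold change of 0.06, and 20 in shBMAL1, with 3 lower and 7 higher and a median of 0.13. Over all genes tested, 19.0% were lower and 16.5% higher in shARNT (median 0.0028), and 19.4% lower and 17.4% higher in shBMAL1 (median 0.015). The 6 higher in shARNT became 2 without shARNT replicate 2 and 3 without shControl replicate 3, and the 3 lower became 5 without shControl replicate 1. GOT2, the mitochondrial aspartate aminotransferase, fell in both (−0.23, DESeq2 adjusted p = 0.0002, and −0.27, adjusted p = 9.97e-05). Its cytosolic counterpart GOT1 rose in shBMAL1 (0.49, adjusted p = 1.12e-09) and was not called in shARNT (−0.12, adjusted p = 0.125). GPD2, the mitochondrial glycerol phosphate dehydrogenase, rose in both (0.30, adjusted p = 0.00242, and 0.55, adjusted p = 8.46e-09).

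Among the remaining partners, LDHA, which interconverts lactate and pyruvate, was lower in shARNT (log2 fold change −0.39, DESeq2 adjusted p = 8.75e-14) and was called higher in shBMAL1 (0.16, adjusted p = 0.0331), the latter call being lost without shControl replicate 1 or shBMAL1 replicate 2 (adjusted p = 0.211 and 0.119). MDH2, mitochondrial malate dehydrogenase, fell in shBMAL1 (−0.29, adjusted p = 0.00294). MPC2, a subunit of the mitochondrial pyruvate carrier, which supplies PC with its substrate, had 3580, 3515 and 3423 counts in shControl against 3919, 4228 and 3804 in shARNT and 5470, 6173 and 5908 in shBMAL1. It rose in shBMAL1 (0.74, adjusted p = 5.93e-25) and less in shARNT (0.19, adjusted p = 0.00792, and 0.103 without shARNT replicate 2). LDHA and LDHB have near-identical pseudogene copies, so their counts are less certain.

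SLC2A2, the glucose transporter GLUT2 through which liver and tubule cells release glucose, had the largest change of all partners. It had 12.1, 9.0 and 2.02 counts in shControl against 54.6, 68.7 and 78.5 in shARNT, and 510, 586 and 543 in shBMAL1. The 3 groups did not overlap, and the shControl libraries held a few reads each. It rose in shARNT (log2 fold change 3.13, DESeq2 adjusted p = 3.26e-10) and in shBMAL1 (6.15, adjusted p = 2.1e-74). The direct comparison put shBMAL1 above shARNT (3.02, adjusted p = 6.69e-72).

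Of 12 genes for the enzymes that both glycolysis and gluconeogenesis use, 11 were tested, with 5 lower and 1 higher in shARNT (median log2 fold change −0.15) and 9 lower and 1 higher in shBMAL1 (median −0.26). Over all genes tested, 19.0% were lower in shARNT and 19.4% in shBMAL1, with medians of 0.0028 and 0.015, and the difference in number between the knockdowns was not tested. ENO2, an enolase, fell most in both (−0.52, DESeq2 adjusted p = 1.44e-13, and −0.60, adjusted p = 3.84e-14). GPI, glucose-6-phosphate isomerase, fell by 0.26 in shARNT and ALDOC, an aldolase, by 0.54 in shBMAL1 on the log2 scale (adjusted p = 1.36e-07 and 0.00363). GPI fell further in shBMAL1 (−0.46, adjusted p = 9.96e-10), where it was also below shARNT (−0.20, adjusted p = 0.0235).

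The rises in this list were PGAM1 in shARNT (log2 fold change 0.29, DESeq2 adjusted p = 0.000178) and PGAM2 in shBMAL1 (0.47, adjusted p = 0.0734), both phosphoglycerate mutases. PGAM1 was called lower in shBMAL1 (−0.17, adjusted p = 0.0619), a call lost without shControl replicate 1, 2 or 3 or without shBMAL1 replicate 2, and differed between the knockdowns (−0.46, adjusted p = 9.75e-08). Without shControl replicate 1, 2 genes of the list were called higher in shARNT. The PGAM2 call was kept in 1 of 6 fits with a library left out, the fit without shControl replicate 1. PGAM1, ENO1, ALDOA, TPI1, PGK1 and GAPDH have close pseudogene copies, and their counts are less certain.

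A further list held enzymes of the irreversible glycolytic steps and of their control, namely hexokinases, phosphofructokinases, pyruvate kinases and the enzymes that set fructose 2,6-bisphosphate, the metabolite that inhibits FBP1. Of 15 genes 12 were tested, with 6 lower and 2 higher in shARNT (median log2 fold change −0.07) and 5 lower and 2 higher in shBMAL1 (median −0.18), beside 19.0% lower and 16.5% higher, and 19.4% lower and 17.4% higher, over all genes tested. HK2 fell in both (−1.18, DESeq2 adjusted p = 2.39e-32, and −0.65, adjusted p = 1.5e-11), as did HK1 (−0.72, adjusted p = 8.49e-45, and −0.71, adjusted p = 2.02e-23) and PFKP (−0.78, adjusted p = 4.9e-69, and −0.32, adjusted p = 4.6e-05).

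PFKFB4 fell in shBMAL1 (log2 fold change −0.73, DESeq2 adjusted p = 2.15e-09). It was also called lower in shARNT (−0.21, adjusted p = 0.0707), a call lost without shControl replicate 2 or 3 or shARNT replicate 1 or 2. PFKFB3, which mainly makes fructose 2,6-bisphosphate, rose in both (0.24, adjusted p = 1.39e-06, and 0.51, adjusted p = 1.71e-15). HKDC1, a hexokinase-like enzyme, rose in shARNT (0.31, adjusted p = 9.26e-07). TIGAR, a member that breaks fructose 2,6-bisphosphate down, was among those lower in shBMAL1 (−0.37, adjusted p = 0.0151, and 0.141 without shBMAL1 replicate 2). The second rise in shBMAL1, PFKFB1 at 24.5 to 31.8 counts (1.05, adjusted p = 0.0768), lost its call when any of the 6 libraries was left out, and the 5 falls became 8 without shBMAL1 replicate 1.

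**Figure D3:**
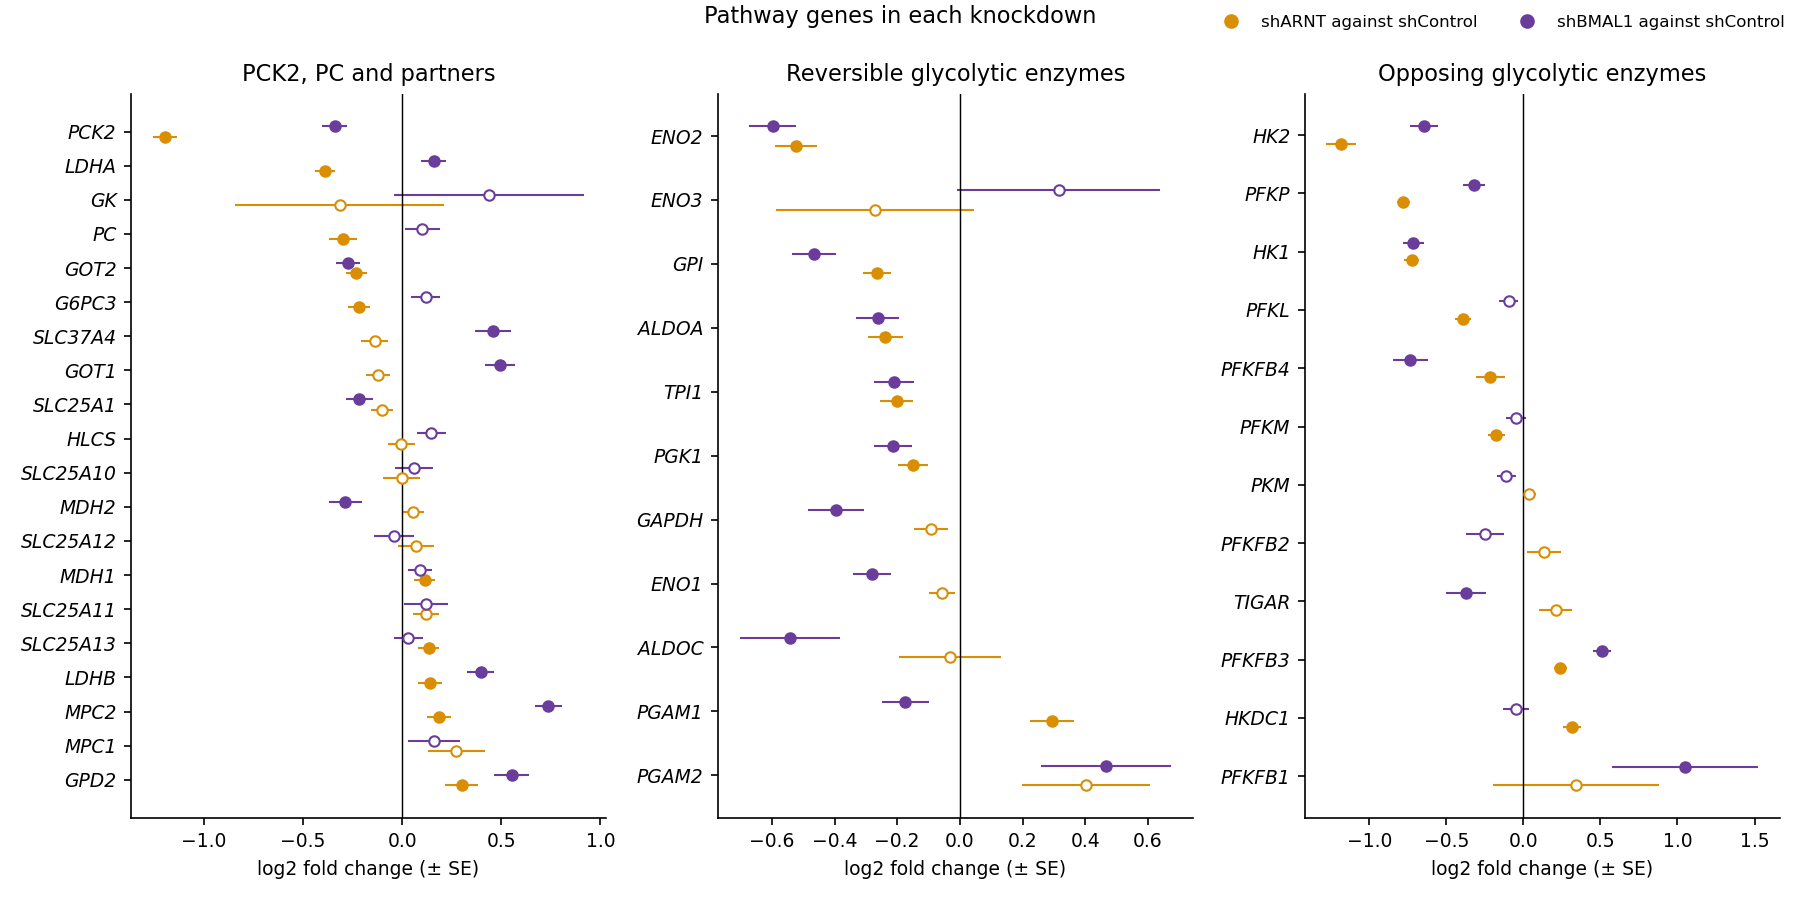
Log2 fold changes with standard errors in shARNT and shBMAL1 against the same 3 shControl libraries for PCK2, PC and the gluconeogenic partners, for the glycolytic enzymes that run in both directions, and for the enzymes of the opposing steps, filled points being called at an adjusted p under 0.1. The 3 panels have different scales, SLC2A2 is not drawn, and PCK2 (−1.20) and HK2 (−1.18) mark the lowest shARNT points.

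The transcription factors and coactivators that control gluconeogenic genes in liver and kidney were called in both directions. Of 25 regulators, 21 were tested in shARNT, with 3 lower and 9 higher and a median log2 fold change of 0.13, and 22 in shBMAL1, with 8 lower and 6 higher and a median of −0.02. The shares over all genes tested were 19.0% lower and 16.5% higher in shARNT, and 19.4% lower and 17.4% higher in shBMAL1. HNF4A, a main activator of PCK1 and G6PC in liver and tubule, was detected in 1 library, at 1.01 counts, and KLF15 had 0 reads throughout.

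PPARGC1A, the coactivator that induces gluconeogenic genes on fasting, had the largest rise. It had 50.3, 61.0 and 36.4 counts in shControl against 156, 180 and 93.4 in shARNT, and 384, 432 and 428 in shBMAL1. The 3 groups did not overlap, with shBMAL1 highest (log2 fold change 1.54 in shARNT, DESeq2 adjusted p = 5.5e-07, and 3.07 in shBMAL1, adjusted p = 1.17e-55). The direct comparison also called it (1.53, adjusted p = 3.4e-15). PCK1 and G6PC, which it activates in liver, had 0 reads in the same libraries.

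**Figure D4:**
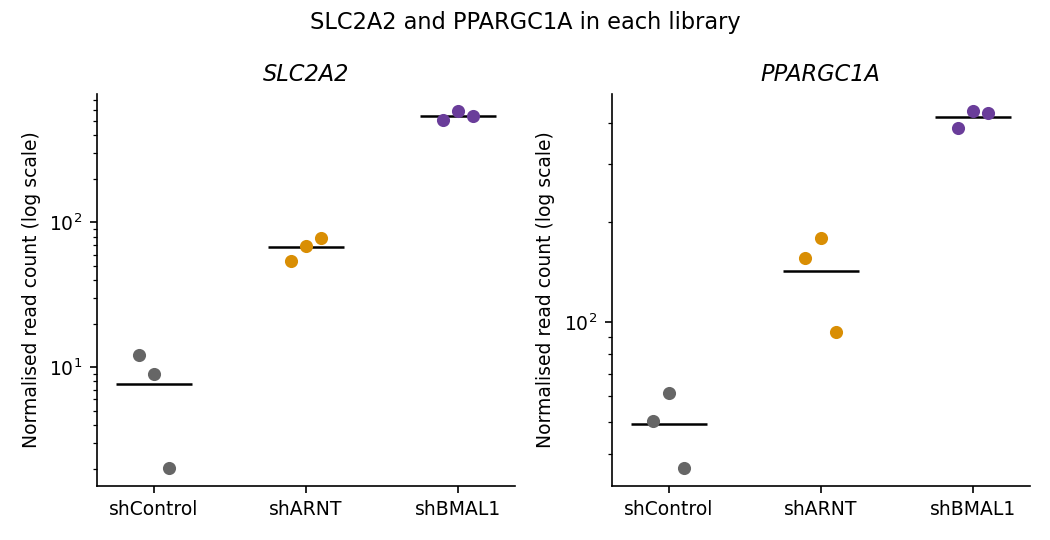
Normalised counts of SLC2A2 and PPARGC1A in each library on a log scale, each point a library and each horizontal bar the mean of 3. Both rise from shControl (means 7.70 and 49.2) to shARNT (67.3 and 143) and shBMAL1 (546 and 415), and the groups do not overlap.

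SIK1, a kinase that restrains the cyclic AMP programme, fell in both knockdowns (log2 fold change −0.80, DESeq2 adjusted p = 5.09e-31, and −1.64, adjusted p = 8.67e-91), and NR4A1, a nuclear receptor induced by cyclic AMP, fell in shARNT (−0.64, adjusted p = 6.44e-05). NR1D1, a circadian repressor and direct BMAL1 target, fell in shBMAL1 (−1.75, adjusted p = 9.97e-48) and rose in shARNT (0.30, adjusted p = 0.0025). Its relative NR1D2 also rose in shARNT (0.52, adjusted p = 1.7e-07) and fell in shBMAL1 (−0.60, adjusted p = 2.36e-06).

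The wider proximal tubule programme was only partly expressed. Of 15 tubule genes, SLC22A6 and SLC22A8, the organic anion transporters, had 0 reads, and LRP2, the endocytic receptor megalin, had reads in 1 library, at 2.00 counts. Of the 8 tested in shARNT, 2 were lower and 2 higher, with a median log2 fold change of 0.03, and of the 11 tested in shBMAL1, 2 were lower and 3 higher, with a median of 0.56, beside 19.0% and 16.5%, and 19.4% and 17.4%, of all genes tested and medians of 0.0028 and 0.015. The list medians cover different genes, since 3 more could be tested in shBMAL1, and 6 of the 11 were not called. MIOX, which starts inositol breakdown, fell in both (−0.65, DESeq2 adjusted p = 1.16e-09, and −0.58, adjusted p = 3.22e-09). SLC3A1, a subunit of the cystine transporter, rose in both (0.50, adjusted p = 0.000946, and 0.70, adjusted p = 6.43e-07). GGT1, a brush border enzyme, was at 7678 ± 563 counts in shControl and 11778 ± 472 in shBMAL1 (0.62, adjusted p = 4.41e-17).

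The remaining calls on this list were small or unstable. ANPEP, a brush border peptidase, rose by 0.18 in shARNT (DESeq2 adjusted p = 0.00149). SLC13A3, a dicarboxylate transporter, was lower in shARNT (log2 fold change −0.39, adjusted p = 0.0266) and in shBMAL1 (−0.29, adjusted p = 0.0545). It lost its call in shARNT without shControl replicate 1 or shARNT replicate 3, and in shBMAL1 without shControl replicate 1 or 3 or shBMAL1 replicate 2 or 3, which left 1 fall on the list. CUBN, the receptor cubilin, was called higher in shBMAL1 (0.62, adjusted p = 0.0951) and kept that call in 2 of the 6 fits with a library left out, those without replicate 2 of shControl or of shBMAL1.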

How the data were processed

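RNA-seq of 786-O cells gave 9 libraries, 3 for each of shControl, shARNT and shBMAL1. Per the study's methods, paired reads were aligned to GRCh37 with SeqMan NGen, counts were exported from ArrayStar and tested with DESeq2, whereas the submitters' processing notes name STAR, DESeq2 and hg38. The annotation and the strand setting are not given in the sources used here. The deposited values are estimated counts per gene. The authors' table had 38074 rows, in which 46.3% of cells held the placeholder 0.009, taken here as 0, and 6.14% of the other values, which carried 5.58% of reads, were fractional and were rounded. Rows of the same name were summed (53 rows), and 28 rows whose symbols had turned into dates were kept apart, which left 38021 genes.

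Counts were tested in DESeq2 1.42.0 (R 4.3.3) with the Wald test on the 6 libraries of each comparison and Benjamini-Hochberg adjustment over all genes tested. A gene was called at an adjusted p under 0.1, the threshold of the study. Normalised counts use size factors over the 9 libraries. Values per kilobase use the GENCODE v44lift37 canonical transcript, available for 21774 genes with 91.1% of reads. Alternatives were edgeR 4.0.16 (quasi-likelihood), TMM size factors, a filter of 10 counts in 3 libraries, an adjusted p under 0.05, a fold of at least 1.5, one fit of all libraries, a replicate block and leaving out each library. The fits were tested on simulated data. Libraries of a group differed by more than sampling noise (chi-square per degree of freedom 7.18 to 16.4, and 44.5 to 93.9 between groups), and none was a duplicate.

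Members and gene lists were chosen with earlier results of these data known. Named genes were the members and, in each list, direction and knockdown, the called genes with the largest change and a mean of at least 20 counts, at most 2. Genes outside this rule were named after their values were seen. The values of a regulator that the rule named are not reported here.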

Additional observations from a re-analysis of the deposited data

How the results depend on the processing

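PCK2 and PC kept their direction under every alternative run. Requiring a fold of at least 1.5 left the PCK2 fall in shARNT and its direct difference as calls, and ended those of PC in shARNT (−0.30), PCK2 in shBMAL1 (−0.34) and PC in the direct comparison (0.40). It lowered the genes called from 5374 to 1200 in shARNT, from 7005 to 2606 in shBMAL1 and from 6409 to 2064 between the knockdowns, and it lowered most list counts as well. In shARNT the genes called lower went from 12 to 7 for the amino acid response, from 5 to 0 for the enzymes used in both directions, from 6 to 3 for those of the irreversible glycolytic steps and from 3 to 0 for the partners, and those called higher from 6 to 1 for the partners and from 9 to 1 for the regulators. In shBMAL1 the genes lower went from 7 to 0, from 9 to 1, from 5 to 3 and from 3 to 0 for the same lists and from 8 to 3 for the regulators, and those higher from 7 to 2 for the partners and from 6 to 3 for the regulators. Between the knockdowns, the amino acid response genes higher in shBMAL1 went from 12 to 3 at this fold, and numbered 9 to 12 with 1 library left out. With each library left out in turn, the genes called ranged from 4174 to 4508, from 5744 to 6347 and from 5087 to 5928. The log2 fold change of PCK2 then ranged from −1.25 to −1.16 in shARNT, from −0.36 to −0.31 in shBMAL1 and from 0.82 to 0.91 between the knockdowns, and that of PC from −0.34 to −0.26, from 0.04 to 0.18 and from 0.34 to 0.48. The adjusted p of PC in shBMAL1 ran from 0.13 to 0.807 over all alternatives. Same-numbered libraries showed no shared deviation (correlations of −0.154 to 0.105 over 9 pairs, and −0.266 to 0.235 over 18 pairs of different numbers). No pairing by number was thus detected, though 3 libraries per group cannot exclude it. A replicate block gave 4150, 5742 and 5388 genes called and −1.20 for PCK2 and −0.30 for PC in shARNT. With TMM size factors the partner genes lower in shARNT rose from 3 to 5, and with 1 fit of all 9 libraries those higher fell from 6 to 3. Over all alternatives 0 values reversed. Of the results for other named genes, 112 lost and 6 gained a call, and 1286 kept their side of the threshold. These counts leave out EPAS1, KRT8, KRT18, COL1A1 and GOT1, and GPI outside shARNT against shControl. Depth limits PCK1, G6PC and FBP1, for which a change could not be measured.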
